A study of Homo sapiens with 20 samples.

Results

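The genes described here are 10 genes of the amino acid response: ATF4 itself, the transcription factor DDIT3 (also called CHOP), the feedback regulator TRIB3, the glutathione-degrading enzyme CHAC1, the mTORC1 inhibitors DDIT4 and SESN2, the biosynthetic enzymes ASNS, PSAT1 and PHGDH, and the cystine transporter SLC7A11. Each was found by matching the transcript identifiers of the abundance tables to gene symbols, and the estimated counts of its transcripts were summed in all 14 libraries. All 10 were found, out of 57087 genes, and between 1 (SESN2) and 17 (ASNS) transcripts of each were in the tables.

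ATF4 is a basic leucine zipper transcription factor whose translation rises when eIF2α is phosphorylated, which the kinase GCN2 does when uncharged tRNAs accumulate. Together with C/EBP family partners it binds composite elements in the promoters of genes for amino acid synthesis and uptake. Its output also includes DDIT3 and TRIB3, which feed back on the response, and DDIT4 and SESN2, which restrain mTORC1. Since ATF4 is controlled to a large part at translation, its RNA level is not a readout of its protein.

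The study asked how small RNAs made by Dicer from transfer RNAs act on gene expression in HEK293T cells and derived lines, which come from human embryonic kidney. mRNA-seq compared 3 wt libraries, labelled HEK293T, with 3 libraries of HEK293 2B cells carrying a Dicer short hairpin RNA (shDicer), and the labels give 3 µg/ml doxycycline for 7 days for both groups. Chromatin-associated RNA (chrRNA-seq), which is enriched in RNA still bound to its template, was sequenced from cells labelled HEK293 in 2 libraries each of wt, shDicer, shAgo2 and shDrosha. The shDicer and shAgo2 cells carry an inducible hairpin construct and received 3 µg/ml doxycycline for 72 hours. The methods list Dicer hairpin lines with and without a TAP-tagged Dicer in the inducible cassette, and which of these was sequenced is not given in the sources used here. The shDrosha cells were transfected with hairpin plasmids. Doxycycline is not given in the labels for wt or shDrosha chrRNA libraries. None of the 14 libraries used here is labelled as carrying a scrambled hairpin, which the labels name only for small RNA samples not analysed here, so the hairpin cannot be told apart from the line that carries it, nor, in mRNA-seq, from the difference between HEK293T and HEK293 2B. The labels do not say whether replicates are separate cultures, and p-values then measure only the spread between these libraries.

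The known recognition letters of ATF4 with C/EBP partners were looked for in the promoters of the genes. TGATGNAA, searched on both strands in the 250 bases upstream of each RefSeq start site on GRCh38.p14, was in 1104 of 35116 promoters (3.14%). Of the 10 genes, 9 had a promoter in the table (SLC7A11 did not), and the letters were found for ASNS and CHAC1. Both windows are printed 5′ to 3′ on the strand of the gene, with the matching letters in capitals, because they are the 2 windows that hold the letters.
ASNS: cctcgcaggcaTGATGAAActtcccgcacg
CHAC1: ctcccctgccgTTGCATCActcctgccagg
The ASNS window lies at chr7:97872458-97872487 on the minus strand, and its match spans positions -68 to -61 from the start site. The CHAC1 window lies at chr15:40953251-40953280 on the plus strand, with the match on the opposite strand at positions -209 to -202. A match describes the letters only, and the absence of one elsewhere says only that these letters are not in that window.

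The mRNA-seq libraries held from 10216430 to 17215978 estimated counts and the chrRNA-seq libraries from 17484067 to 21553760. A count of 3 was worth 0.184 to 0.311 CPM in the former and 0.149 to 0.183 CPM in the latter, taken against the matched counts of a library before TMM scaling. The folds set against 3 counts below use this unscaled value. Elsewhere CPM is a count as a share of its library's TMM-scaled total, the usual normalised read count. DICER1 itself was between 231.5 and 257 CPM in the wt mRNA libraries and between 80.6 and 94.4 CPM in shDicer, a fall of 1.49 on the log2 scale (adjusted p = 1.28e-07). In chrRNA-seq, DICER1 was between 119 and 124 CPM in wt and between 107 and 108 CPM in shDicer (log2 fold change -0.18, adjusted p = 0.166). In shAgo2, DICER1 was at 203.6 and 214 CPM and was called higher than in wt (log2 fold change 0.78). AGO2 fell from a mean of 247 to 161 CPM in shAgo2 (adjusted p = 9.29e-05). DROSHA was 146 and 153 CPM in wt and 166 and 148 CPM in the libraries labelled shDrosha, so DROSHA chrRNA was not lower there. These libraries do not measure steady-state RNA or protein. For Drosha, Dicer and Ago2 the study lists qRT-PCR of steady-state RNA from the chrRNA-seq samples and reports successful knockdown by western blot. Below, shDrosha stands for the libraries so labelled. Of 7 markers of HEK293 cells, 5 were called higher and 2 lower in chrRNA of shDicer, against 11.0% and 10.5% of all genes. Among them, NEFL went from a mean of 12.01 to 160 CPM and NEFM from 24.5 to 2.51 CPM. In shAgo2 3 were higher and 2 lower, against 12.5% and 12.1%. In shDrosha 0 were higher and 2 lower, against 1.19% and 2.18%. Of 6 tested in mRNA of shDicer, 3 were higher and 1 lower, against 15.6% and 14.2%. The lines thus differed in markers beyond the target, and the part of that in the results below was not tested. Of 4 markers of other cell types, CD3E (T cells), ALB (liver) and PTPRC (leukocytes) were at a mean of 0.277 CPM or less in both mRNA groups. HBB, the beta globin gene of erythroid cells, had 0 counts in all wt and shDrosha libraries and was between 9.01 and 11.9 CPM in the shDicer mRNA libraries, at least 32.9-fold higher when set against 3 counts per library. In chrRNA its mean was 0.820 CPM in shDicer and 0.827 CPM in shAgo2, and the part of this difference between the cells in the results below was not tested.

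Per length (in TPM, which divides by transcript length and scales every library to one total), ATF4 had the highest level of the 10 genes in wt mRNA, at 277 ± 13.5 TPM (SD, n = 3). PHGDH followed at 55.6 ± 3.48 TPM, ASNS at 42.0 ± 4.84 TPM and PSAT1 at 22.9 ± 2.32 TPM, and the ranges of these 4 genes did not overlap. The transporter SLC7A11 was at 6.72 ± 1.35 TPM, SESN2 at 5.51 ± 1.08 TPM, DDIT3 at 4.12 ± 0.682 TPM and DDIT4 at 3.90 ± 1.62 TPM, and each of these overlapped its neighbour in the order. TRIB3 was at 2.57 ± 0.215 TPM. CHAC1 was close to the limit, with 11, 3 and 1 counts in the wt mRNA libraries.
In wt chrRNA the order began with PHGDH at 115 ± 0.757 TPM (n = 2), followed by ATF4 at 60.4 ± 3.34 TPM and ASNS at 49.3 ± 0.305 TPM. PSAT1 was at 29.0 ± 0.828 TPM, DDIT4 at 15.0 ± 0.214 TPM, and SESN2 and DDIT3, whose ranges overlapped, at 10.4 ± 0.584 and 9.47 ± 1.11 TPM. SLC7A11 was at 3.62 TPM, TRIB3 at 2.53 TPM and CHAC1 at 1.53 TPM, and CHAC1 was detected in every chrRNA library, with between 38 and 103 counts.

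**Figure D1:**
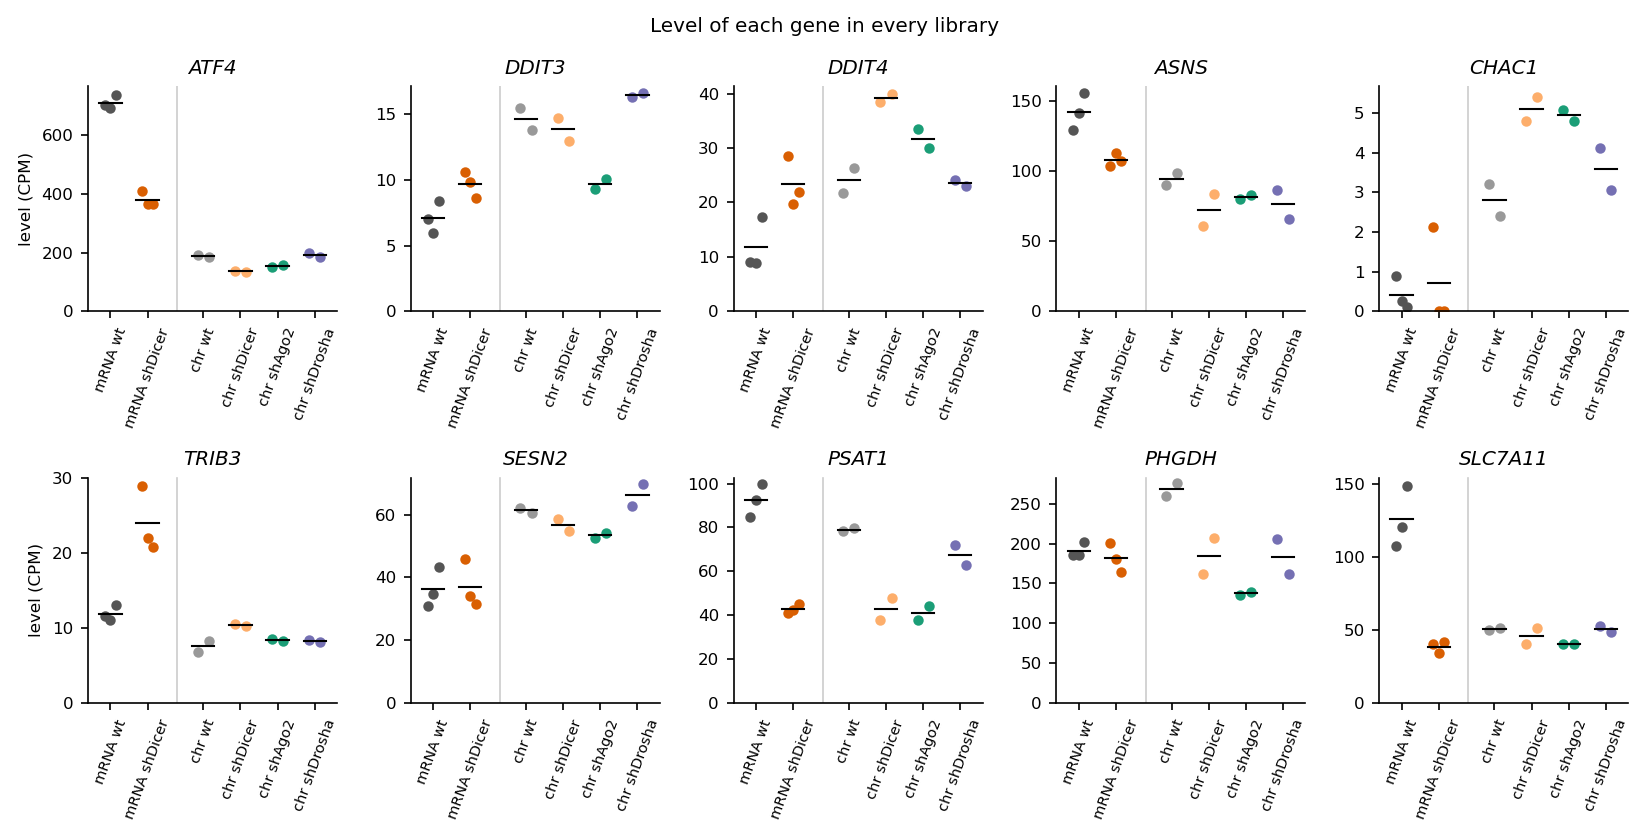
Level of each of the 10 genes in every library, in CPM (linear axes from 0, a separate scale for each gene); points are libraries, horizontal bars group means, and the vertical line separates mRNA-seq (n = 3 a group) from chrRNA-seq (n = 2 a group). ATF4, PSAT1, SLC7A11 and ASNS lie lower in all 3 shDicer mRNA libraries than in all 3 wt libraries, whereas TRIB3, DDIT4 and DDIT3 lie higher. Of these, ASNS, DDIT4 and DDIT3 did not pass the threshold.

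In mRNA of shDicer cells the 10 genes did not move in 1 direction: PSAT1 and SLC7A11 were lower, along with ATF4, and TRIB3 was higher. SLC7A11 fell the furthest, followed by PSAT1 and ATF4. In all, 9 of the 10 genes passed the filter on low counts (CHAC1 did not), of which 1 was called higher and 3 lower at the threshold of the study for mRNA, an adjusted p under 0.001; of all 15090 genes tested, 15.6% were called higher and 14.2% lower. The median log2 fold change of the 9 was -0.07, beside 0.01 for all genes tested.
In chrRNA at an adjusted p under 0.005, shDicer had 1 of the 10 genes higher (DDIT4) and 2 lower (ATF4, PSAT1), against 11.0% higher and 10.5% lower of 32874 genes. shAgo2 had 0 higher and 3 lower (DDIT3, PSAT1, PHGDH), against 12.5% and 12.1% of all genes. In the libraries labelled shDrosha, where the study used a threshold of 0.05, 0 were higher and 1 (PHGDH) was lower, against 1.19% and 2.18% of all genes. All 3 chrRNA comparisons share the 2 wt libraries, so their fold changes are not independent of each other. In bulk RNA, fewer cells that express a gene and less of its RNA in each cell cannot be told apart.

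**Figure D2:**
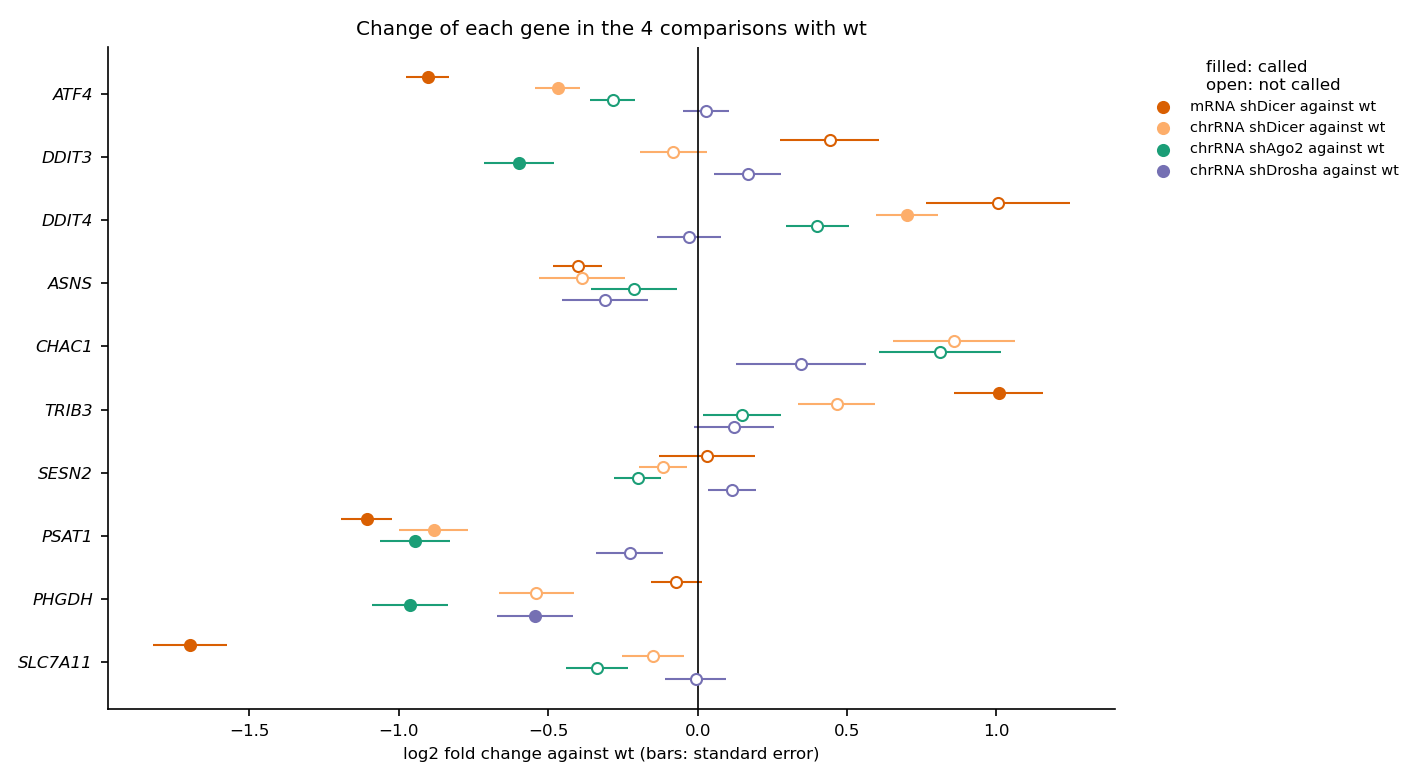
Log2 fold change against wt of each of the 10 genes in the 4 comparisons, with the standard error of the fit as bars; filled symbols passed the threshold of their comparison, open symbols did not. PSAT1 was called lower in mRNA and chrRNA of shDicer and in chrRNA of shAgo2, and SLC7A11 was called lower in mRNA and in none of the chrRNA comparisons.

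ATF4, the regulator, was at 703, 693 and 738 CPM in wt mRNA and at 409.6, 365 and 367 CPM in shDicer. Every shDicer library was below every wt library. ATF4 fell by 0.90 on the log2 scale (SE 0.07, adjusted p = 2.13e-06), to 0.535 of the wt level.
In chrRNA, ATF4 was at 192 and 185 CPM in wt, 139 and 133 CPM in shDicer, 152 and 158 CPM in shAgo2, and 200.1 and 184 CPM in shDrosha. Both inducible lines lay below wt, while shDrosha overlapped wt. The fall in shDicer was 0.47 on the log2 scale (SE 0.08, adjusted p = 0.00045), and without the first wt library it was 0.45 with an adjusted p of 0.00885, above the threshold. The difference in shAgo2 (-0.28, adjusted p = 0.00991) did not pass the threshold, nor did that in shDrosha (0.03, adjusted p = 0.886). Among the 50 tested genes nearest to ATF4 on chromosome 22 the median log2 fold change was -0.46 in chrRNA of shDicer and -0.38 in shAgo2, beside -0.47 and -0.28 for ATF4 itself. With that median taken as an offset, ATF4 was at -0.01 (adjusted p = 0.933) in chrRNA of shDicer. In mRNA the neighbours were at -0.17, and ATF4 was at -0.73 with the offset (adjusted p = 1.22e-05).

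DDIT3, the proapoptotic partner induced downstream of ATF4, was low throughout, at 7.05, 5.96 and 8.39 CPM in wt mRNA and at 10.6, 9.84 and 8.64 CPM in shDicer. The groups did not overlap, and the difference of 0.44 on the log2 scale (adjusted p = 0.0401) did not pass the threshold. In chrRNA it was at 15.5 and 13.8 CPM in wt and at 9.29 and 10.04 CPM in shAgo2, a fall of 0.60 (SE 0.12, adjusted p = 0.00148).
That call was lost without the first wt library (-0.51, adjusted p = 0.0234) and without either shAgo2 library (-0.54 and -0.66, adjusted p = 0.0229 and 0.00885). DESeq2 gave -0.60 with an adjusted p of 0.00931. The 50 nearest genes on chromosome 12 were at a median of -0.49, and with that offset DDIT3 was at -0.11 (adjusted p = 0.498). MBD6 and MARS1, which overlap DDIT3 on the other strand, were also lower in both shAgo2 libraries: MBD6 was between 48.3 and 49.2 CPM in wt and between 25.6 and 26.9 CPM in shAgo2, and MARS1 between 269.6 and 290.5 CPM and between 175 and 195 CPM. In shDicer chrRNA, DDIT3 was at 14.7 and 12.98 CPM, overlapping wt.

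TRIB3, a pseudokinase that dampens ATF4 and DDIT3 activity, was at 11.5, 11.03 and 13.1 CPM in wt mRNA and at 28.9, 22.0 and 20.7 CPM in shDicer. The groups were well apart, and TRIB3 rose 2.01-fold (log2 fold change 1.01, SE 0.15, adjusted p = 0.000189). Without the first or the second wt library the log2 fold change was 1.01 and 0.95, with adjusted p of 0.00301 and 0.00138, both above the threshold. In chrRNA of shDicer it was at 10.5 and 10.3 CPM against 6.82 and 8.27 CPM in wt (0.47, adjusted p = 0.0132), which was not called, and in shAgo2 and shDrosha it overlapped wt.
CHAC1, which cleaves glutathione, could not be compared in mRNA: 1 shDicer library had 27 counts and the other 2 had 0. In chrRNA it was at 3.20 and 2.40 CPM in wt, 4.79 and 5.40 CPM in shDicer, and 5.07 and 4.80 CPM in shAgo2. The libraries of both lines lay above wt, with log2 fold changes of 0.86 and 0.81, but at adjusted p of 0.00574 and 0.00719 neither passed the threshold. Both passed without a filter on low counts (adjusted p = 0.00267 and 0.00406).

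DDIT4 (REDD1) and SESN2 (sestrin 2) both restrain mTORC1, DDIT4 through TSC2 and SESN2 as a leucine sensor. DDIT4 was at 9.08, 8.89 and 17.3 CPM in wt mRNA and at 28.5, 19.7 and 22.0 CPM in shDicer, with the third wt library apart from the other 2. The groups did not overlap; the log2 fold change of 1.01 (SE 0.24, adjusted p = 0.00422) did not pass the threshold, and it lay between 0.83 and 1.37 on leaving out 1 library, passing only without the third wt library (adjusted p = 0.000223). It also passed in DESeq2 (1.003, adjusted p = 8.4e-05) and without the filter on low counts (1.06, adjusted p = 4.79e-12).
In chrRNA DDIT4 was at 21.8 and 26.3 CPM in wt, 38.4 and 39.8 CPM in shDicer, 33.4 and 30.0 CPM in shAgo2, and 24.1 and 23.0 CPM in shDrosha. It rose 1.63-fold in shDicer (log2 fold change 0.70, SE 0.10, adjusted p = 0.000225), a call that was lost without the first wt library (0.57, adjusted p = 0.0059). The difference in shAgo2 (0.40, adjusted p = 0.00885) did not pass the threshold.
SESN2 was at 30.7, 34.6 and 43.4 CPM in wt mRNA and at 45.7, 33.9 and 31.5 CPM in shDicer, and the groups overlapped. Its log2 fold change was 0.03 in mRNA and lay between -0.20 and 0.11 in the chrRNA comparisons, none called. The 50 genes around SESN2 on chromosome 1 were at a median of -0.41 in mRNA and of -0.37 and -0.41 in chrRNA of shDicer and shAgo2.

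PSAT1 and PHGDH catalyse consecutive steps of serine synthesis, and ASNS makes asparagine. PSAT1 was at 84.7, 92.5 and 99.7 CPM in wt mRNA and at 40.9, 42.5 and 44.9 CPM in shDicer, and fell by 1.11 on the log2 scale (SE 0.09, adjusted p = 1.74e-06). In chrRNA it was at 78.5 and 79.6 CPM in wt, 37.9 and 47.8 CPM in shDicer, 37.8 and 44.3 CPM in shAgo2, and 72.1 and 62.9 CPM in shDrosha. The first 2 knockdowns were at about the same level, well below wt, and shDrosha lay between them and wt. PSAT1 fell by 0.88 in shDicer (SE 0.12, adjusted p = 9.06e-05) and by 0.95 in shAgo2 (SE 0.12, adjusted p = 4.59e-05), and was not called in shDrosha (-0.23, adjusted p = 0.302). Its 50 neighbours on chromosome 9 had medians of 0.00 in mRNA, -0.07 in shDicer and -0.12 in shAgo2.

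PHGDH, the first enzyme of the same route, was at 185, 185 and 202 CPM in wt mRNA and at 201, 180.2 and 164 CPM in shDicer, and the groups overlapped (-0.07, adjusted p = 0.5). In chrRNA it was at 259.8 and 276 CPM in wt, 161.5 and 207 CPM in shDicer, 135 and 139 CPM in shAgo2, and 206 and 161 CPM in shDrosha. All 6 knockdown libraries were below both wt libraries. PHGDH fell by 0.96 in shAgo2 (SE 0.13, adjusted p = 8.05e-05).
In shDrosha PHGDH fell by 0.54 (SE 0.13, adjusted p = 0.0385), the only call among the 10 genes there. That call was lost without either wt library (adjusted p = 0.192 and 0.215), without either shAgo2 library (0.0776 and 0.0832) and without the second shDrosha library (-0.38, adjusted p = 0.12). The difference in shDicer, -0.54, had an adjusted p of 0.00505, just above the threshold of 0.005; DESeq2 gave 0.000266. The 2 shDicer libraries were apart, and the value was -0.73 without the second (adjusted p = 0.0011) and -0.37 without the first (adjusted p = 0.0449).

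ASNS was at 129.5, 142 and 156 CPM in wt mRNA and at 104, 113 and 107 CPM in shDicer. No library overlapped, and the log2 fold change of -0.40 (SE 0.08, adjusted p = 0.00161) did not pass the threshold of 0.001; with the replicate number as a block it did (adjusted p = 0.000886), as it did in DESeq2 (9.61e-05). In chrRNA ASNS was at 90.2 and 99.1 CPM in wt and at 61.0 and 83.7 CPM in shDicer (-0.39, adjusted p = 0.0532), and both shDicer libraries lay below wt, but far apart from each other. Without the second shDicer library it was at -0.63 (adjusted p = 0.00484), and without the first at -0.18 (adjusted p = 0.363).
The neighbours of ASNS on chromosome 7 went the other way, with medians of 0.39 in mRNA and of 0.44 and 0.36 in chrRNA of shDicer and shAgo2. With that offset, ASNS was at -0.79 in mRNA (adjusted p = 1.89e-05) and at -0.83 in chrRNA of shDicer (adjusted p = 0.00111), both past the threshold.

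SLC7A11 (xCT) imports cystine in exchange for glutamate. It was at 107.5, 121 and 148 CPM in wt mRNA and at 40.0, 34.2 and 41.4 CPM in shDicer, with the groups far apart. SLC7A11 fell by 1.70 on the log2 scale (SE 0.12, adjusted p = 1.05e-06), to 0.308 of the wt level.
In chrRNA it was at 50.2 and 51.4 CPM in wt, 40.6 and 51.0 CPM in shDicer, 40.4 and 40.0 CPM in shAgo2, and 52.7 and 48.4 CPM in shDrosha. shDicer and shDrosha overlapped wt, and the difference in shAgo2 (-0.34, adjusted p = 0.0206) did not pass the threshold. Its antisense neighbour SLC7A11-AS1 was at 0.534 CPM or less in every mRNA library. The 50 neighbours on chromosome 4 had a median of -0.42 in mRNA and of -0.03 in chrRNA of shDicer.

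**Figure D3:**
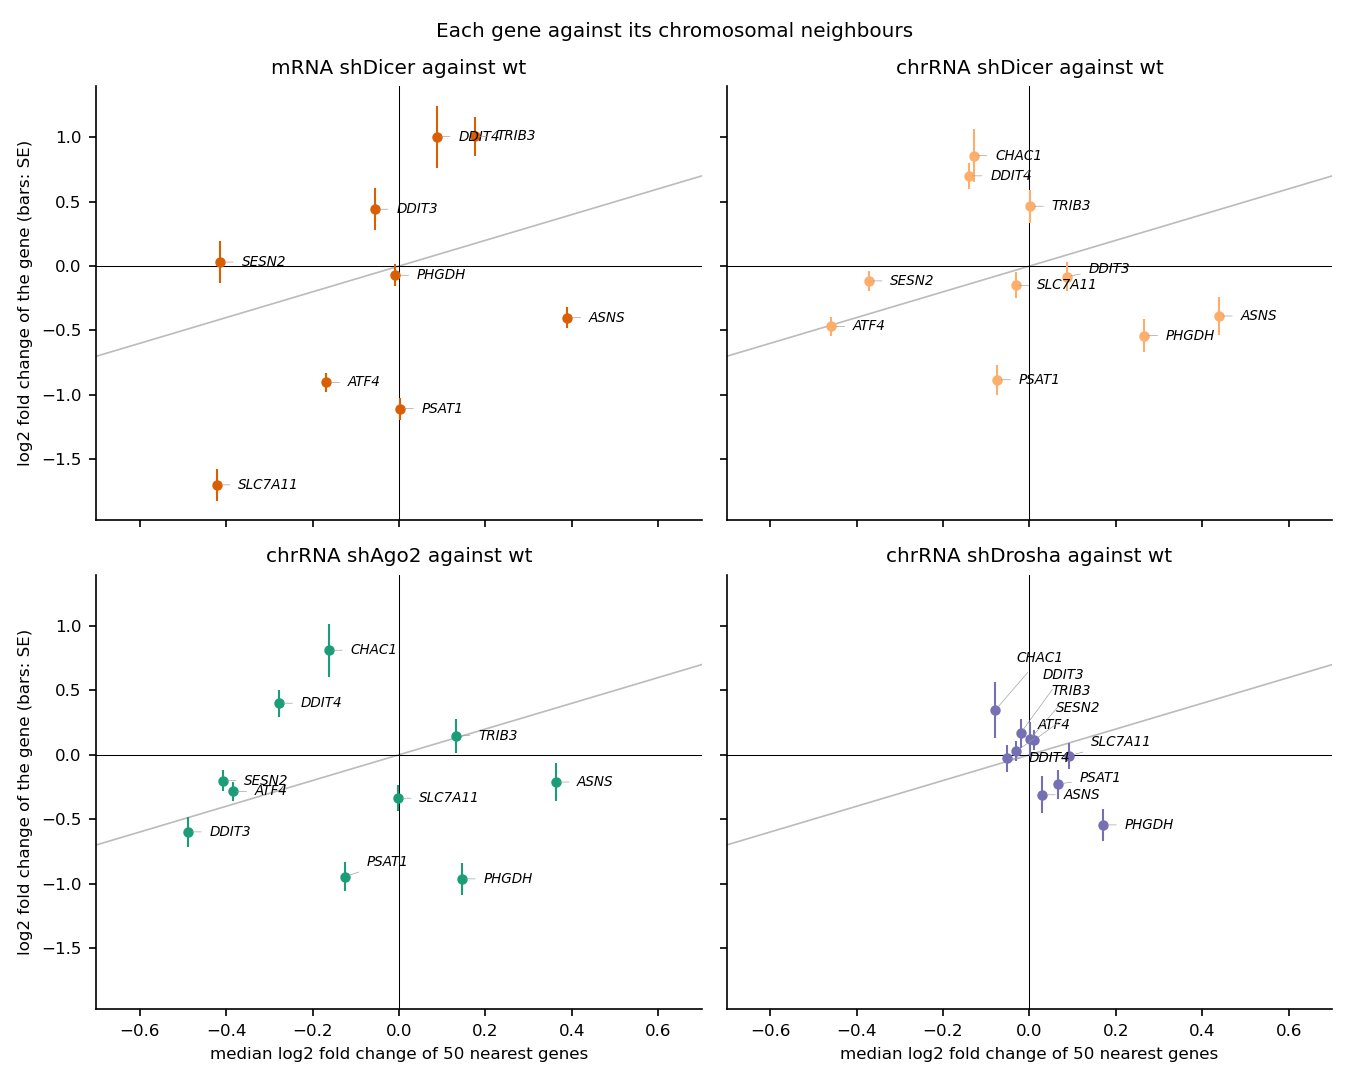
Log2 fold change of each tested gene (vertical axis, bars are standard errors) against the median log2 fold change of its 50 nearest tested genes on the chromosome (horizontal axis), one panel for each comparison with wt; the grey line marks equal values. ATF4 lies on the line in chrRNA of shDicer, and DDIT3 close to it in shAgo2, whereas PSAT1, PHGDH and ASNS lie below it in those panels.

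Whether the change in mRNA differed from that in chrRNA was tested for shDicer as an interaction over 10 libraries. Of the 10 genes, 1 passed an adjusted p of 0.005, against 5.03% of all 31106 genes tested. This was SLC7A11, whose fall was larger in mRNA by 1.47 on the log2 scale (SE 0.18, adjusted p = 8.31e-05); the median of this difference over all genes was 0.10. ATF4 (-0.35, adjusted p = 0.0669), PHGDH (0.55, adjusted p = 0.0316), DDIT3 (0.60, adjusted p = 0.101) and TRIB3 (0.62, adjusted p = 0.106) were not called. The 2 experiments also differed in cell line label, time on doxycycline and library kit, which cannot be told apart from the RNA fraction.
The knockdowns were then compared with each other in chrRNA. Between shDicer and shAgo2, 0 of the 10 genes passed an adjusted p of 0.005 with edgeR, and 0 with DESeq2, against 2.71% of all genes; 5 (ATF4, DDIT3, DDIT4, TRIB3 and PHGDH) had an unadjusted p under 0.05. The lowest adjusted p was that of DDIT3, 0.52 higher in shDicer (adjusted p = 0.016). Against shDrosha, shDicer had DDIT4 higher by 0.73 (adjusted p = 0.000171), ATF4 lower (-0.50, adjusted p = 0.000312) and PSAT1 lower (-0.66, adjusted p = 0.000873), 3 of 10 genes against 20.5% of all. shAgo2 had DDIT3 (-0.77, adjusted p = 0.000251) and PSAT1 (-0.72, adjusted p = 0.00043) lower than shDrosha, 2 of 10 against 21.9%. Without the first shAgo2 library neither of these passed (-0.71 and -0.60, adjusted p = 0.00653 and 0.0116). PSAT1 in shDicer against shDrosha was also lost without the first shDicer library (-0.49, adjusted p = 0.00771) or the first shDrosha library (-0.56, adjusted p = 0.00737).

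For ATF4 and PSAT1, and for CHAC1 with its few counts, the most abundant annotated transcript by mean TPM differed between wt mRNA and wt chrRNA. For the other 7 genes it was the same one, though SESN2 has only 1 transcript. For DDIT4 and DDIT3 this held for the means but not in every library. In the first wt chrRNA library DDIT4-203, annotated as a retained intron, was above DDIT4-201, at 6.009 against 4.989 TPM. Among the wt mRNA libraries, DDIT3-206 had the highest TPM of the DDIT3 transcripts in the first only. ATF4-202, in which an intron of 506 bases (chr22:39520752-39521257) is spliced out, made up 97.4% of ATF4 TPM in wt mRNA and 16.4% in wt chrRNA. ATF4-201, which keeps that intron inside an exon, made up 2.38% in wt mRNA and 79.8% in wt chrRNA.
The share of ATF4-201 stayed between 77.5 and 82.2% in every chrRNA library, and in shDicer chrRNA the means of both transcripts were lower than in wt, from 48.2 to 34.3 TPM for ATF4-201 and from 9.88 to 7.41 TPM for ATF4-202. Both were also lower in mRNA, ATF4-202 at a mean of 269.9 TPM in wt and 121.5 TPM in shDicer and ATF4-201 at 6.61 and 3.63 TPM. TPM values are not TMM-scaled, so falls in TPM need not equal those in CPM. PHGDH, whose CPM overlapped in mRNA, was between 52.2 and 59.2 TPM in wt and between 43.2 and 45.2 TPM in shDicer.
PSAT1-202, with 9 exons, made up 98.2% of PSAT1 TPM in wt mRNA and 37.3% in wt chrRNA, where PSAT1-201 took 62.7%. PSAT1-201 lacks the exon of 138 bases at chr9:78328051-78328188 and is shorter as a whole, at 1411 bases against 2206. In estimated counts, before the division by length, the 2 transcripts were close in wt chrRNA. PSAT1-201 had 671.0 and 638.1 counts there and PSAT1-202 had 653.0 and 621.9. Both were lower in chrRNA of shDicer and shAgo2: PSAT1-201 was at 18.2 TPM in wt, 9.79 TPM in shDicer and 8.96 TPM in shAgo2, and PSAT1-202 at 10.8, 5.73 and 6.05 TPM. The division of reads between such transcripts is an estimate of kallisto, and reads from introns that no transcript of the index holds are not counted.

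For PHGDH and ASNS the coding and the retained-intron transcripts in chrRNA were also looked at apart. PHGDH-202, the main coding transcript in mRNA, was at 46.3 TPM in wt, 28.2 TPM in shDicer, 19.4 TPM in shAgo2 and 16.7 TPM in shDrosha, whereas PHGDH-204, annotated as a retained intron, was at 15.7, 10.5, 8.29 and 15.4 TPM. In shDrosha, the retained-intron transcripts of PHGDH, summed and tested on their own, were at a log2 fold change of 0.02 (adjusted p = 0.912), and its protein-coding transcripts fell by 1.22 (SE 0.26, adjusted p = 0.037). In shAgo2 both kinds were lower, the retained-intron ones by 0.68 (adjusted p = 5.79e-05) and the protein-coding ones by 1.16 (adjusted p = 0.00637, not called). In shDicer the retained-intron ones were at -0.40 (adjusted p = 0.0027) and the protein-coding ones at -0.59 (adjusted p = 0.0963, not called).
ASNS-202, its main coding transcript, was between 14.01 and 14.8 TPM in wt chrRNA and between 5.41 and 10.1 TPM in the 6 knockdown libraries. ASNS-215, a retained-intron transcript, was at 12.1 TPM in wt and at 11.8, 14.4 and 11.8 TPM in shDicer, shAgo2 and shDrosha. Summed by kind, the retained-intron transcripts of ASNS were at -0.06, 0.25 and 0.10 and its protein-coding ones at -0.49, -0.35 and -0.47 in these comparisons, none called. The difference between the kinds was not tested. Over all genes, protein-coding transcripts took between 53.4 and 54.0% of the counts in wt chrRNA and between 50.5 and 51.3% in shDrosha. The part of this shift in the values of PHGDH and ASNS was not tested.
For DDIT4 both kinds moved alike in shDicer chrRNA, by 0.71 for the retained-intron (adjusted p = 0.00193) and 0.77 for the protein-coding transcripts (adjusted p = 0.00231).

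Reads of some of these genes can be assigned elsewhere. Of the 31-base subsequences of ATF4, 29.4% also occur in other genes, most often in ATF4P3, a pseudogene that was at 0.313 CPM or less in mRNA and between 3.44 and 6.64 CPM in chrRNA. For PSAT1 the share was 15.3%, most often with PSAT1P3, which was at 0.0632 CPM or less in every library. ASNS shared 6.42%, SLC7A11 3.48% and PHGDH 0.729%. DDIT3, DDIT4, CHAC1, TRIB3 and SESN2 shared 0%.

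Of 6 paralogues of these genes, 2 were called higher and 0 lower in mRNA of shDicer, 3 higher and 0 lower in chrRNA of shDicer and of shAgo2, and 0 higher and 1 lower in shDrosha. For these and the lists that follow, the shares of all genes tested that were called higher and lower were 15.6% and 14.2% in mRNA of shDicer, 11.0% and 10.5% in its chrRNA, 12.5% and 12.1% in shAgo2, and 1.19% and 2.18% in shDrosha. SESN1, another sestrin, rose from a mean of 35.6 to 81.3 CPM in mRNA of shDicer (log2 fold change 1.19, adjusted p = 1.86e-06) and was also called higher in chrRNA of shDicer (0.76) and shAgo2 (0.83), whereas SESN2 was not called in any of these comparisons. TRIB2 rose by 1.32 in mRNA of shDicer (adjusted p = 3.01e-05), by 1.43 in chrRNA of shDicer and by 1.42 in shAgo2. TRIB1 rose in chrRNA of shDicer (1.04, adjusted p = 5.99e-05) and shAgo2 (1.13, adjusted p = 2.62e-05) and was not called in mRNA (0.30, adjusted p = 0.0874). TRIB2 was called lower in shDrosha (-0.70, adjusted p = 0.0346), a call lost on leaving out either wt, either shAgo2 or the second shDrosha library (adjusted p between 0.0658 and 0.205). CHAC2, DDIT4L and SESN3 were not called in any comparison with wt.

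Upstream of ATF4, among 11 eIF2 kinases and regulators 2 were called higher and 2 lower in mRNA of shDicer, and in chrRNA 1 higher and 0 lower in shDicer, 1 and 1 in shAgo2, and 1 and 0 in shDrosha. EIF2AK4 (GCN2), the kinase that senses uncharged tRNA, rose from a mean of 58.5 to 97.1 CPM (0.73, adjusted p = 1.21e-05). It was also called higher in chrRNA of shDicer (0.63, adjusted p = 0.000202) and shAgo2 (0.59, adjusted p = 0.000265). With the median of its neighbours as an offset the value in chrRNA of shDicer was 0.39 (adjusted p = 0.00646, above the threshold). Without the first wt library both calls were lost (adjusted p = 0.00635 and 0.00773), and without the second shAgo2 library so was that in shAgo2 (0.00606). In mRNA the retained-intron transcripts of EIF2AK4 alone were at -0.33 (adjusted p = 0.563). PPP1R15A (GADD34), the phosphatase subunit that reverses eIF2α phosphorylation, was 1 of the 11 called in shDrosha, higher by 0.73 (adjusted p = 0.00495), from a mean of 25.7 to 42.7 CPM; without the first wt library its adjusted p was 0.0925. In mRNA of shDicer it was called lower (-0.85, adjusted p = 0.000718), a call that was lost in 5 of the 6 fits without 1 library (adjusted p between 0.00225 and 0.0089).
Of 8 partner and related bZIP factors, 7 were tested in mRNA, and 2 were higher and 0 lower; in chrRNA 2 were higher and 0 lower in shDicer, 3 and 1 in shAgo2, and 1 and 0 in shDrosha. CEBPA rose from 9.81 to 30.6 CPM in mRNA of shDicer (1.64), by 1.88 in its chrRNA and by 1.96 in chrRNA of shAgo2; with the median of its neighbours as an offset the mRNA value was 0.71 (adjusted p = 0.00262). ATF3, an immediate early ATF4 target, rose in shDrosha from 11.4 to 27.6 CPM (1.27, adjusted p = 0.0018), and was the 1 gene of this list called there. Its protein-coding transcripts alone were at 1.75 in shDrosha (adjusted p = 0.061). ATF3 was also called higher in chrRNA of shAgo2, at between 0.82 and 0.91 on leaving out 1 library. That call was lost without either wt library and without the first shAgo2 library. From protein-coding transcripts alone the value in shAgo2 was 1.33 (adjusted p = 0.0422, above the threshold).

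Among the other enzymes of the serine and one-carbon route, 2 of 8 were higher and 3 lower in mRNA of shDicer. The mitochondrial folate enzyme MTHFD2 fell from a mean of 509 to 235 CPM (-1.12, adjusted p = 3.64e-07), and ALDH1L2 fell from 16.7 to 5.10 CPM (-1.70), though its protein-coding transcripts alone were at -1.31 (adjusted p = 0.00133, above the threshold). GLDC, which breaks down glycine, rose from a mean of 20.2 CPM (1.37, adjusted p = 1.63e-06), and it also rose in chrRNA of shDicer (0.69, adjusted p = 6.48e-05). In chrRNA 1 was higher and 3 lower in shDicer, 1 higher and 2 lower in shAgo2, and 0 higher and 1 lower in shDrosha; MTHFD1L fell by 0.64 in shDicer and by 0.69 in shAgo2.
Of 10 amino acid transporters, 1 was higher and 2 lower in mRNA of shDicer. SLC7A5 (LAT1), which carries leucine, fell from 30.0 to 4.93 CPM (-2.59, adjusted p = 4.58e-06), and in chrRNA from 88.5 to 26.1 CPM in shDicer (-1.76) and 25.4 CPM in shAgo2 (-1.80). SLC7A3, a cationic amino acid transporter, was at a mean of 3.92 CPM in wt mRNA and at 0 counts in all 3 shDicer libraries, at least 17.0-fold lower when set against 3 counts per library. In chrRNA 0 were higher and 4 lower in shDicer, 1 higher and 6 lower in shAgo2, and 0 higher and 3 lower in shDrosha.
Of 10 other amino acid enzymes, 2 were higher and 3 lower in mRNA of shDicer. CBS, which starts the conversion of homocysteine to cysteine, fell from 93.9 to 10.7 CPM (-3.16, adjusted p = 2.6e-06), and in chrRNA from 505 to 126 CPM in shDicer (-2.00) and 76.2 CPM in shAgo2 (-2.73). ASS1, the argininosuccinate synthase, rose from 25.1 to 60.8 CPM in mRNA (1.28, adjusted p = 7.91e-06), and the proline enzyme PYCR1 fell in chrRNA of shDicer (-0.997) and shAgo2 (-1.49). In chrRNA 2 were higher and 3 lower in shDicer, 0 higher and 3 lower in shAgo2, and 0 in either direction in shDrosha.

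Among 13 other outputs of ATF4 and DDIT3, of which 11 were tested in mRNA, 2 were higher and 2 lower in shDicer. TNFRSF10B, the death receptor DR5, rose from 38.3 to 104 CPM (1.45, adjusted p = 1.69e-07), and from 52.4 to 115 CPM in its chrRNA (1.13). In chrRNA 2 of 12 were higher and 0 lower in shDicer, 1 higher and 1 lower in shAgo2, and 0 in either direction in shDrosha.
Of 15 chaperones and other genes of the ATF6 and XBP1 branches of the unfolded protein response, 5 were lower in mRNA of shDicer, 5 in its chrRNA, 4 in shAgo2 and 2 in shDrosha, and 0 were higher in any of these comparisons. Over all genes 14.2%, 10.5%, 12.1% and 2.18% were lower, and 15.6%, 11.0%, 12.5% and 1.19% higher. The median log2 fold change of the 15 genes was -0.34, -0.43, -0.34 and -0.26, beside medians over all genes between 0.00 and 0.01. XBP1 fell from 106 to 49.8 CPM in mRNA (-1.09, adjusted p = 1.91e-05), and HYOU1 fell in chrRNA from 182 CPM in wt to 103 CPM in shDicer (-0.81), 74.8 CPM in shAgo2 (-1.28) and 89.7 CPM in shDrosha (-1.02). In shDrosha the retained-intron transcripts of HYOU1 were at 0.03 (adjusted p = 0.934). Some calls of this list were lost with the neighbourhood offset. Among them were XBP1 in chrRNA of shDicer at -0.48 (adjusted p = 0.0234), HSPA5 in shAgo2 at -0.34 (adjusted p = 0.214) and CALR in shDrosha at -0.54 (adjusted p = 0.101). The HSPA5 call was also lost without either wt or either shAgo2 library. That of CALR was lost without either wt, either shAgo2 or the second shDrosha library.
SLC7A11 is also a target of NRF2, the regulator of the oxidative stress response. Of 7 other NRF2 targets tested in mRNA, 1 was higher and 2 lower in shDicer: SRXN1 rose (1.002) and HMOX1 fell (-1.23, adjusted p = 9.85e-06). In chrRNA 0 of 8 were higher in any comparison, and 2 were lower in shDicer, 2 in shAgo2 and 0 in shDrosha.

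The genes most like ATF4 and ASNS were sought among the 9141 genes whose log2 CPM averaged 3 or more in each assay, by the Euclidean distance of their 4 log2 fold changes against wt. ZCCHC17 (distance 0.04), SWAP70 (0.05) and LUC7L2 (0.07) were nearest to ATF4. SDC3 (0.07), LRRC59 (0.07) and VPS4A (0.10) were nearest to ASNS. Among the other genes described here, ASNS was the nearest to ATF4, at a distance of 0.62, and ATF4 the nearest to ASNS, yet ASNS ranked 1583 of the 9140 other genes by closeness to ATF4, and ATF4 ranked 2599 by closeness to ASNS. Since 3 of the 4 fold changes rest on the same wt libraries, this likeness is a description.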

How the data were processed

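The authors quantified each library with kallisto in stranded mode against human Ensembl cDNA and non-coding RNA, and deposited for each transcript an estimated count, which is not normalized, and a TPM value, which is scaled by effective length. The labels name polyA RNA for mRNA-seq, whereas the methods describe ribosomal depletion. The 6 small RNA samples were not analysed here.

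Transcripts were matched by identifier, version dropped, to GENCODE release 44 (193697 of 217082, with between 93.4 and 94.8% of counts), and estimated counts were summed per gene and rounded. edgeR 4.0.16 in R 4.3.3 (filterByExpr, TMM, quasi-likelihood test, Benjamini-Hochberg over all genes tested) was fitted to the 6 mRNA libraries, to the 8 chrRNA libraries together, and to 10 libraries for the interaction. Adjusted p-values are from edgeR unless DESeq2 1.42.0 is named, and thresholds follow the study. The members and lists were chosen with earlier results of these data known. Besides the 10 genes, their paralogues and the targeted genes, a list contributed at most its 2 largest and 2 smallest called log2 fold changes per comparison, some of which are described. Alternatives covered normalization, filter, transcript type, pairing, a neighbourhood offset and leaving out each library. The fits were tested on simulated data. The floor of 3 counts covers counting error only, whereas standard errors include the spread between libraries.

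Same-numbered mRNA libraries deviated together from their group means over the 9397 genes averaging at least 3 in log2 CPM (correlations 0.143, 0.12 and 0.254), and less so over all 15090 (between 0.0455 and 0.0812). The replicate number was therefore also fitted as a block. Replicates differed by more than sampling noise, so none was counted as a repeat of another.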

Additional observations from a re-analysis of the deposited data

Results flagged for a closer look

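These results stood out because an effect differed between groups by a test of the difference itself. SLC7A11 fell further in mRNA than in chrRNA of shDicer, with a log2 difference of -1.47. Among the chrRNA knockdowns, which share their wt libraries, ATF4 was lower in shDicer than in shDrosha (log2 difference -0.50), DDIT4 was higher (0.73) and PSAT1 was lower (-0.66). DDIT3 and PSAT1 were lower in shAgo2 than in shDrosha (-0.77 and -0.72). The PSAT1 and DDIT3 calls against shDrosha were lost in some fits without 1 library, as given above. Against wt and with the neighbourhood offset, ATF4 was at -0.01 in chrRNA of shDicer (adjusted p = 0.933). DDIT3 was at -0.11 in shAgo2 by the same fit (adjusted p = 0.498). Groups of 2 or 3 libraries are too small for a search for outlying libraries, and none was made.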

How the results depend on the processing

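The number of the 10 genes called moved with the processing more than their directions did. Of the 10 genes, only DDIT4, ASNS and PHGDH have transcripts annotated as retained introns, so a count from these alone covers no other gene. The 4 genes called in mRNA have no such transcript and could not be called in that setting. In mRNA it was 4, with 0 from retained-intron transcripts alone and 7 at an adjusted p under 0.05; in chrRNA of shDicer it was 3, with 5 under library-size scaling, without the filter on low counts and with the neighbourhood offset, 6 at an adjusted p under 0.05, 0 with an absolute log2 fold change above 1, and between 1 and 5 on leaving out 1 library. In shAgo2 it was 3, with 1 from protein-coding and 1 from retained-intron transcripts alone, 7 when only those 2 groups were fitted, 7 at an adjusted p under 0.05 and 0 above an absolute log2 fold change of 1. In shDrosha it was 1, and 0 with the replicate block, with counts scaled from TPM, from retained-intron transcripts alone, above an absolute log2 fold change of 1, and between 0 and 1 on leaving out 1 library. Between shAgo2 and shDrosha it was 2, and between 0 and 4 on leaving out 1 library; for the interaction it was 1, with 2 in DESeq2 and between 1 and 2 on leaving out 1 library. With the replicate block the counts were 5 in mRNA, where ASNS was added, 3 in chrRNA of shDicer and 3 in shAgo2, and no other call among the 10 genes changed but that of PHGDH in shDrosha; over all genes the block gave 137 higher and 315 lower in shDrosha, against 392 and 718 without it. The chrRNA numbers did not pair all groups (correlations with wt of 0.276 for shDicer, 0.0958 for shAgo2 and -0.369 for shDrosha), and with the shDrosha numbers crossed, an alternative chosen after seeing the data, as was that of retained-intron transcripts, the counts were 6, 6 and 2 of the 10 genes and 1149 higher and 1962 lower over all genes in shDrosha. Signs changed for called values from retained-intron transcripts alone, in mRNA of shDicer for EIF2AK4 (-0.33), SHMT2 (-0.18) and XPOT (0.0595) and in shDrosha for PHGDH (0.025), HYOU1 (0.0327) and VIM (0.26), and with the neighbourhood offset for CEBPG in mRNA (-0.39) and chrRNA of shDicer (-0.17); the cause was not tested. With 2 libraries a group in chrRNA, and CHAC1 at under 30 counts in each mRNA library, small differences were not detectable at this depth.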

Other observations

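PAX2, a kidney lineage marker, was at a mean of 0.184 CPM in wt and 0.111 CPM in shDicer mRNA, under the limit of 3 counts. In chrRNA its mean was 10.8 CPM in wt, 20.7 CPM in shDicer, 14.3 CPM in shAgo2 and 13.6 CPM in shDrosha, and it was called higher in shDicer (log2 fold change 0.94, adjusted p = 0.000611) and in neither of the other comparisons with wt.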
